A study of Mus musculus with 12 samples.

Results

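The genes described here are Gpnmb, Trem2, Spp1, Cd9, Lpl, Fabp5, Apoe, Lgals3, Cd36 and Tyrobp, a list of 10 names that mark the lipid-associated, scar-associated state of tissue macrophages in published work. They were taken by name, and 9 of the 10 were measured among 18194 genes tested. Spp1, which encodes osteopontin, is paired with no probe set in the annotation used here and was not analysed here. The other 9 members have 15 probe sets on the array: 3 for Cd36, 2 each for Gpnmb, Trem2, Lpl and Fabp5, and 1 each for Cd9, Apoe, Lgals3 and Tyrobp. The samples were lungs of C57BL/6 mice in 4 groups of 3, and total RNA of each lung sample was hybridized to its own Affymetrix array (12 in all). Wild type and FIZZ2 knockout mice had received saline or bleomycin by endotracheal injection, and PBS-perfused lungs were taken at day 21. FIZZ2 is the secreted protein RELM-beta, encoded by Retnlb, and bleomycin is a DNA-breaking drug used to scar the mouse lung. The labels give no age or sex, do not describe the targeted allele, and do not tell whether a group's samples came from different mice. The p-values therefore speak of the scatter of samples within groups, pooled over the 4 groups and drawn towards that of other genes. This scatter may be technical.

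Macrophages that take up dead cells and lipid in injured tissue can switch on a shared set of genes. TREM2 is a surface receptor that binds lipids and lipoproteins and signals through the adaptor DAP12, the product of Tyrobp; apolipoprotein E is one of its ligands. CD36 and lipoprotein lipase bring fatty acids to the cell, fatty acid binding proteins carry them inside it, and apolipoprotein E carries lipid out. Macrophages of this kind have been described beside collagen-producing cells in scarred lung and liver. Several of these genes are also active in other cells: endothelium expresses Cd36, fat and heart express Lpl, and epithelium can express Cd9, Fabp5 and Lgals3.

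The arrays were alike in distribution, with medians on the log2 scale between 5.58 and 5.68 and correlations across probe sets of 0.988 to 0.997 between arrays of a group (12 pairs; probe sets are not independent replicates). Retnlb itself was dim, between 3.49 and 4.13 on the 12 arrays, so it gives no check of the genotype labels (knockout against wild type after bleomycin, log2 difference -0.35, limma, adjusted p = 0.0502). Surfactant and other alveolar type 2 genes were bright on every array, as a lung label requires: the summed signal of 8 of them lay between 15.35 and 16.14 on the log2 scale. In RNA from whole lung, more cells of a type and more RNA per cell cannot be told apart.

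Of the 9 measured members, 6 rose with bleomycin in wild type lung and 4 rose in knockout lung. A gene is said to have risen or fallen where limma's Benjamini-Hochberg adjusted p over all 18194 genes was under 0.05. Among all genes tested, 13.3% were called higher and 14.4% lower in wild type lung, and 1.98% were called higher and 1.29% lower in knockout lung. In wild type lung Gpnmb, Trem2, Tyrobp, Apoe, Lgals3 and Lpl rose, and in knockout lung Gpnmb, Trem2, Apoe and Lgals3 rose. None of the 9 fell on its brightest probe set in either genotype (limma, 0 lower, and 0 lower at an unadjusted p under 0.05; 2 further probe sets of Cd36 did, as described below). The median log2 change of the 9 members was 0.87 in wild type and 0.28 in knockout lung, against -0.04 and 0.01 over all genes.

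**Figure D1:**
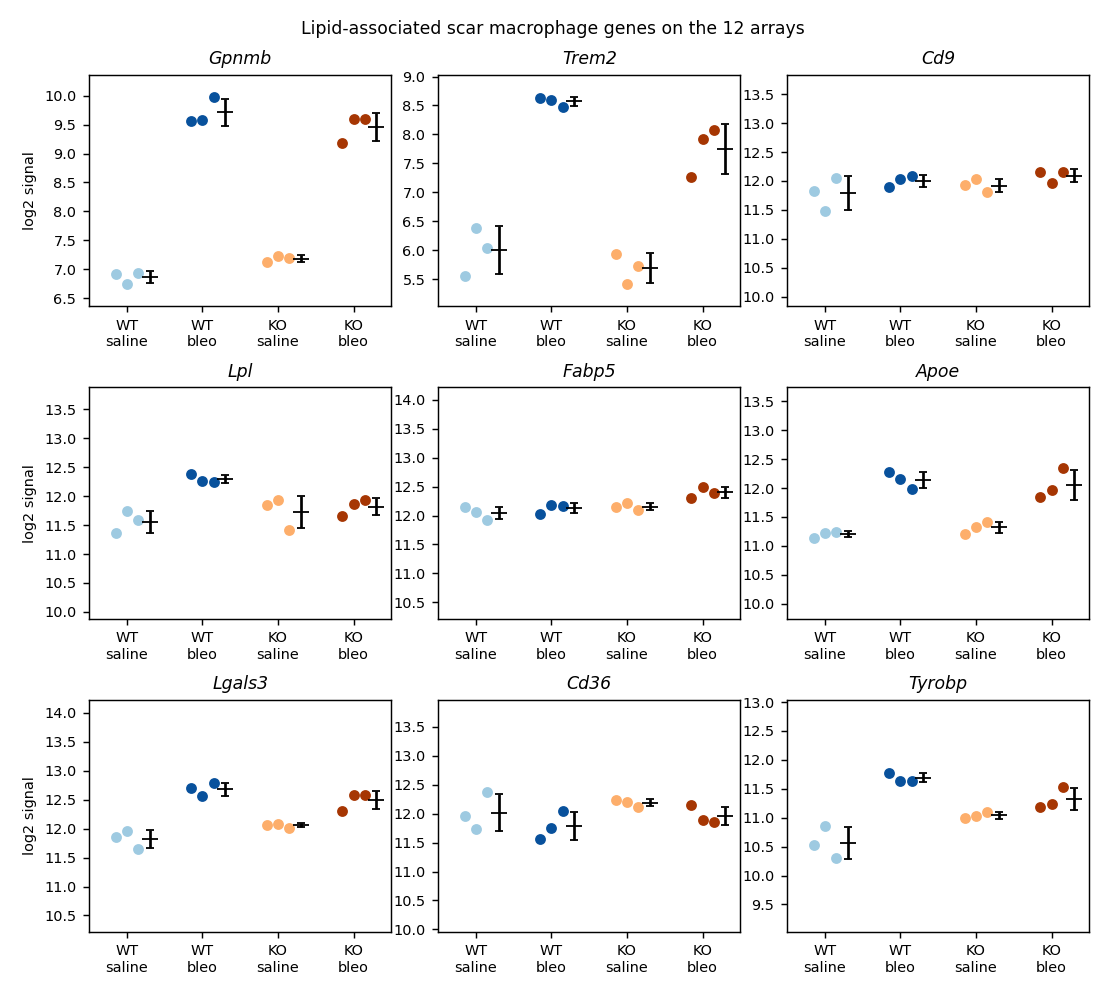
Log2 signal (vertical axis, each panel spanning 4 log2 units) of the 9 measured genes on the 12 arrays, on the brightest probe set of each gene. Points are single arrays of wild type (WT, blue) and knockout (KO, orange to brown) lungs after saline (light) or bleomycin (bleo, dark), and black bars are the mean ± SD of 3 arrays; for Gpnmb and Trem2 every bleomycin array lies above every saline array of both genotypes.

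Trem2, the lipid-sensing receptor, was low after saline and high after bleomycin in both genotypes. Its log2 values were 5.56, 6.38 and 6.04 in wild type saline lungs and 8.63, 8.60 and 8.47 in wild type bleomycin lungs. In knockout lungs they were 5.94, 5.42 and 5.72 after saline and 7.26, 7.92 and 8.07 after bleomycin. The lowest bleomycin array, knockout replicate 1, lay above the highest saline array, and all 3 knockout bleomycin arrays lay below the 3 wild type ones. Trem2 rose 5.94-fold in wild type lung (2.57 ± 0.22 on the log2 scale, with the SE of the fit and n = 3 in each group, adjusted p = 4.03e-06) and 4.17-fold in knockout lung (2.06 ± 0.22, adjusted p = 0.000465). The rise ranked 43rd of 18194 in wild type and 9th in knockout lung. These values are from a probe set of the kind whose probes can match more than 1 transcript. The other Trem2 probe set was dim (3.58 to 3.99 on all arrays) and did not pass in either genotype (adjusted p over all probe sets 0.282 and 0.38); averaged over both probe sets, Trem2 still rose, by 1.21 and 1.11 on the log2 scale.

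Tyrobp encodes DAP12, the adaptor through which TREM2 and several other receptors of macrophages, neutrophils and natural killer cells signal. In wild type lungs it lay at 10.53, 10.86 and 10.31 after saline and at 11.78, 11.64 and 11.64 after bleomycin. In knockout lungs it lay at 10.99, 11.03 and 11.10 after saline and at 11.19, 11.23 and 11.53 after bleomycin. Every knockout saline array was above every wild type saline array, and every knockout bleomycin array was below every wild type bleomycin array. Tyrobp rose 2.18-fold in wild type lung (1.12 ± 0.13, adjusted p = 3.65e-05). The change in knockout lung was 0.28 ± 0.13 and did not pass (adjusted p = 0.271), although the arrays of the 2 knockout groups did not overlap.

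Gpnmb, a transmembrane glycoprotein of lysosome-rich, lipid-loaded macrophages, had the largest change of the 9 in both genotypes. It was measured at 6.92, 6.75 and 6.94 in wild type saline lungs and at 9.56, 9.58 and 9.98 in wild type bleomycin lungs. The knockout values were 7.12, 7.23 and 7.19 after saline and 9.18, 9.59 and 9.60 after bleomycin. The lowest bleomycin array lay 2.61 log2 units above the highest saline array in wild type and 1.95 above it in knockout lung, whereas the bleomycin arrays of the 2 genotypes overlapped. Gpnmb rose 7.14-fold in wild type lung (2.84 ± 0.13, adjusted p = 9.41e-08) and 4.85-fold in knockout lung (2.28 ± 0.13, adjusted p = 4.35e-06), the 22nd and the 4th largest rise among 18194 genes. Its other probe set was at the level of background (2.78 to 3.70) and did not pass, and the mean of both gave 1.64 and 1.22, still called.

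The 250 bases before the RefSeq start sites of Gpnmb and Trem2 (GRCm38.p6) are shown because these 2 genes had the largest rises in both genotypes. Each window was searched on both strands for 4 short motifs: the E-box CACGTG, the M-box core CATGTG, the AP-1-like pattern TGANTCA (N is any base) and the PU box GAGGAA. Capitals mark a match. The windows are chr6:49036268-49036517 (plus strand) for Gpnmb and chr17:48346151-48346400 (plus strand) for Trem2.
Gpnmb: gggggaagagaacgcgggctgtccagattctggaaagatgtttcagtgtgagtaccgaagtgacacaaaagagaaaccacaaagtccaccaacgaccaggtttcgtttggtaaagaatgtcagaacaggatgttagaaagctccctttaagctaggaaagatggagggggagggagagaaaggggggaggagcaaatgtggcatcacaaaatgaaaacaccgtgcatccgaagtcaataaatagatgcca
Trem2: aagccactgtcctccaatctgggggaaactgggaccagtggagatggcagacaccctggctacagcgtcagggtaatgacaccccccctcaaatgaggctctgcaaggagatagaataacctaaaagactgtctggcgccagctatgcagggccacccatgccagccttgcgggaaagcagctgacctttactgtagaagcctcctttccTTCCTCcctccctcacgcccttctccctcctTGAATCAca

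The Trem2 window holds a PU box, read on the opposite strand, that starts 40 bases before the start site. It also holds a match to the AP-1-like pattern, TGAATCA with A at the free base, that starts 9 bases before the start site. Among 32851 RefSeq windows of the same length, 23.3% hold the PU box, 6.7% the AP-1-like pattern, 6.0% the E-box and 12.3% the M-box core. The Gpnmb window holds none of the 4, which says only that these letters are not in this window. Of the 10 listed genes, 7 have an entry in that table, and Lpl, Fabp5 and Tyrobp do not. None of the motifs overlaps another in these windows, and a match is a run of letters, not a measured binding site.

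Apoe and Lpl, which encode the lipid-carrying apolipoprotein E and the enzyme that frees fatty acids from lipoproteins, both rose in wild type lung. Apoe values were 11.14, 11.23 and 11.24 after saline and 12.27, 12.16 and 11.98 after bleomycin in wild type lungs. In knockout lungs they were 11.21, 11.33 and 11.41 after saline and 11.84, 11.97 and 12.34 after bleomycin. Saline and bleomycin arrays of Apoe did not overlap in either genotype, and the bleomycin arrays of the 2 genotypes did. Apoe rose 1.91-fold in wild type lung (0.93 ± 0.12, adjusted p = 8.92e-05) and 1.66-fold in knockout lung (0.73 ± 0.12, adjusted p = 0.00628).

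Lpl lay at 11.37, 11.74 and 11.59 after saline and at 12.39, 12.27 and 12.25 after bleomycin in wild type lungs. The knockout arrays were at 11.85, 11.93 and 11.41 after saline and at 11.66, 11.87 and 11.94 after bleomycin. The 3 wild type bleomycin arrays were above all 9 other arrays, and the 2 knockout groups overlapped. Lpl rose 1.67-fold in wild type lung (0.74 ± 0.13, adjusted p = 0.00121), and the change in knockout lung was 0.09 ± 0.13 (95% confidence interval -0.20 to 0.38, adjusted p = 0.781). A dimmer Lpl probe set gave 1.16 ± 0.21 in wild type (adjusted p over all probe sets 0.00229) and 0.11 ± 0.21 in knockout lung (0.87). Fat and heart tissue express Lpl, and their markers moved among these arrays: the summed signal of 8 adipocyte genes was 12.11, 12.02 and 10.69 in knockout saline lungs, where replicate 3 was lowest for Lpl as well. In wild type saline lungs the adipocyte sums were 11.18, 9.75 and 11.26, and replicate 2, the lowest, had the highest Lpl value of that group. Wild type bleomycin lungs had sums of 10.17, 10.10 and 9.91, within the wild type saline range. In knockout bleomycin lungs the sums were 9.12, 9.49 and 11.57. In knockout lung 0 of 8 adipocyte genes passed (limma; 0 higher and 6 lower at an unadjusted p under 0.05; median -1.43), and in wild type lung 1 of 8 fell (median -0.88). With group means removed, Lpl had r = 0.40 with the adipocyte genes and 0.28 with the cardiac muscle genes over the 12 arrays. Across all the marker lists its r ran from -0.62 (neutrophil) to 0.50 (fibroblast), with 0.44 for general macrophage genes. These r values are a description and carry no p. The part of fat in the Lpl values was not tested. Without knockout saline replicate 3 the knockout change of Lpl was -0.07, also not called (adjusted p = 0.846).

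Lgals3 encodes galectin-3, a sugar-binding protein abundant in activated macrophages and also made by epithelium. The wild type arrays were at 11.85, 11.96 and 11.65 after saline and at 12.70, 12.57 and 12.79 after bleomycin. The knockout arrays were at 12.06, 12.08 and 12.02 after saline and at 12.31, 12.59 and 12.59 after bleomycin. Bleomycin arrays were higher than saline arrays without overlap in both genotypes. Lgals3 rose 1.82-fold in wild type lung (0.87 ± 0.10, adjusted p = 4.66e-05) and 1.36-fold in knockout lung (0.44 ± 0.10, adjusted p = 0.034). The knockout call was lost without knockout saline replicate 1, 2 or 3 (adjusted p = 0.0995, 0.108 and 0.109) or knockout bleomycin replicate 2 or 3 (0.116 and 0.125).

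Cd36, the fatty acid and oxidized-lipoprotein receptor, was bright on all arrays and was not higher after bleomycin. On its brightest probe set the wild type arrays were at 11.96, 11.73 and 12.37 after saline and at 11.57, 11.76 and 12.04 after bleomycin, and the knockout arrays were at 12.23, 12.21 and 12.12 and at 12.15, 11.89 and 11.85. The log2 change was -0.23 ± 0.15 in each genotype and did not pass (adjusted p = 0.291 in wild type and 0.479 in knockout lung). Its other 2 probe sets fell in wild type lung in the fit of all 45101 probe sets, by 0.40 ± 0.12 (adjusted p = 0.038) and by 0.84 ± 0.13 (adjusted p = 0.000576). On the probe set with the larger fall, wild type arrays were at 9.54, 9.86 and 9.71 after saline and at 8.58, 8.96 and 9.04 after bleomycin, without overlap. In that fit 9.15% of probe sets were called lower and 9.37% higher in wild type lung. The mean of the 3 probe sets fell by 0.49 (adjusted p = 0.00847), so the call for Cd36 depends on the probe set, and in knockout lung none of the 3 passed (adjusted p = 0.212 to 0.538). Markers of capillary and other endothelium, which expresses Cd36, were also lower in wild type lung: 7 of 10 fell, and their summed signal was 14.44 to 14.63 after saline and 13.96 to 14.08 after bleomycin. In knockout lung 2 of 10 fell (limma, 4 lower at an unadjusted p under 0.05). The knockout sums overlapped, at 14.53 to 14.59 after saline and 14.12 to 14.54 after bleomycin. The part of endothelium in the Cd36 values was not tested.

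Cd9, a tetraspanin of macrophages and epithelium, passed in neither genotype. It lay at 11.82, 11.48 and 12.06 in wild type saline, 11.89, 12.04 and 12.08 in wild type bleomycin, 11.93, 12.03 and 11.81 in knockout saline and 12.16, 11.97 and 12.15 in knockout bleomycin lungs. All 4 groups overlapped for Cd9, with changes of 0.22 ± 0.13 in wild type (95% confidence interval -0.05 to 0.49, adjusted p = 0.224) and 0.17 ± 0.13 in knockout lung (-0.10 to 0.44, adjusted p = 0.536). Without wild type saline replicate 3 the wild type change of Cd9 was 0.35 and passed (adjusted p = 0.0438).

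Fabp5, which encodes a fatty acid binding protein, passed in neither genotype on its brightest probe set and rose in knockout lung on the other. On the brightest it lay at 12.14, 12.06 and 11.93 in wild type saline, 12.02, 12.19 and 12.17 in wild type bleomycin, 12.14, 12.21 and 12.10 in knockout saline and 12.30, 12.50 and 12.39 in knockout bleomycin lungs. The knockout bleomycin arrays were higher than all 9 others. On this probe set the change was 0.09 ± 0.08 in wild type (adjusted p = 0.481) and 0.24 ± 0.08 in knockout lung (adjusted p = 0.142). The second, dimmer probe set rose in knockout lung, by 0.54 ± 0.10 on the log2 scale (adjusted p over all probe sets 0.0165; 0.949% of probe sets were called higher there), and in wild type lung its change of 0.29 ± 0.10 did not pass (adjusted p = 0.0511). As the mean of both probe sets, Fabp5 rose in knockout lung by 0.39 (adjusted p = 0.0106).

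**Figure D2:**
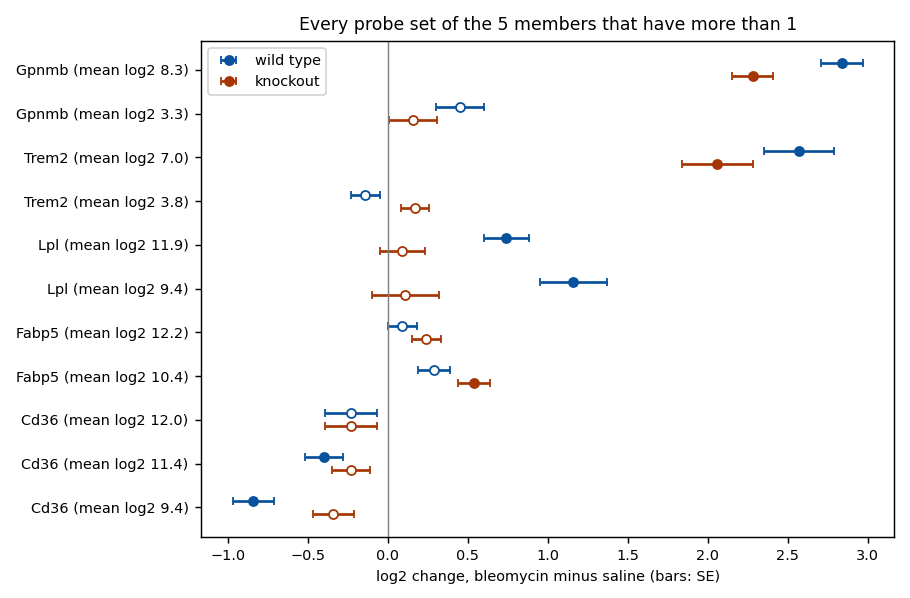
Log2 change with bleomycin (horizontal axis, bars are SE) of every probe set of the 5 genes with more than 1, in wild type (blue) and knockout (brown) lung, with the mean log2 level of each probe set over 12 arrays beside its name. Filled points passed at adjusted p under 0.05 over all 45101 probe sets: the dim probe sets of Gpnmb and Trem2 did not, and 2 of the 3 Cd36 probe sets fell in wild type lung.

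Whether the response to bleomycin depended on the genotype was tested directly, as the knockout change minus the wild type change. Tyrobp was the 1 member of 9 called, with a response smaller in knockout lung by 0.84 ± 0.18 on the log2 scale (adjusted p = 0.021), against 5.02% of all genes called in either direction in this comparison. Tyrobp no longer passed when replicate 1 of wild type saline, replicate 3 of knockout saline or replicate 1 of knockout bleomycin was left out, with differences of -0.82, -0.81 and -0.78 (adjusted p = 0.0509, 0.0517 and 0.0607). For Lpl the difference was -0.65 ± 0.19 (95% confidence interval -1.06 to -0.23, adjusted p = 0.0687) and its dimmer probe set gave -1.05 ± 0.30 (adjusted p over all probe sets 0.0997). It passed in 1 of the 12 fits that left out 1 array, the one without knockout saline replicate 3 (-0.81, limma, adjusted p = 0.0256). The difference for Gpnmb was -0.56 ± 0.18 (adjusted p = 0.099), for Trem2 -0.51 ± 0.31 (0.365), for Lgals3 -0.42 ± 0.14 (0.106) and for Apoe -0.20 ± 0.17 (0.532). Cd9, Cd36 and Fabp5 had differences of -0.05, 0.00 and 0.16, with 95% confidence intervals of -0.44 to 0.34, -0.46 to 0.47 and -0.10 to 0.41. The median of the 9 members was -0.42, against 0.04 over all genes. As a share of the wild type log2 change, the knockout change was 80.3% for Gpnmb, 80.1% for Trem2, 78.8% for Apoe, 51.0% for Lgals3, 24.9% for Tyrobp and 12.6% for Lpl. Differences among these shares were not tested.

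**Figure D3:**
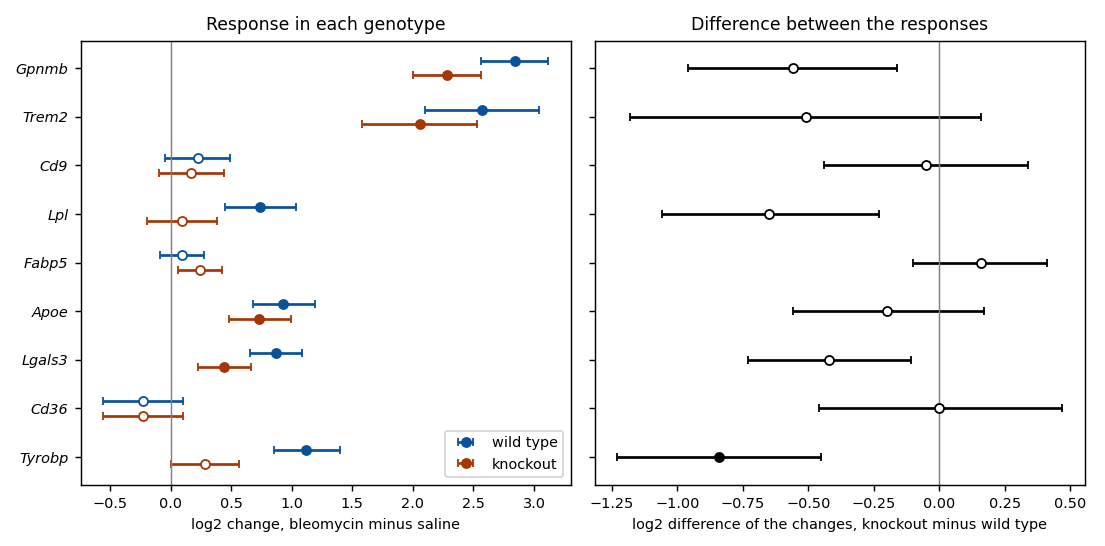
Left, log2 change with bleomycin (horizontal axis, bars are 95% confidence intervals from the fit) of the 9 genes in wild type (blue) and knockout (brown) lung; right, the knockout change minus the wild type change. Filled points passed at adjusted p under 0.05 over 18194 genes: 6 in wild type, 4 in knockout lung, and Tyrobp alone for the difference.

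Knockout and wild type lungs were compared within each treatment; these comparisons use the same arrays as the responses above. After bleomycin, Trem2 was lower in knockout lung by 0.81 ± 0.22 (adjusted p = 0.0246) and Lpl by 0.48 ± 0.13 (adjusted p = 0.0299), and Fabp5 was higher by 0.27 ± 0.08 (adjusted p = 0.0483). Thus 2 of 9 were lower and 1 was higher, where 7.89% of all genes were called lower and 7.52% higher. Trem2 no longer passed when replicate 1 or 2 of wild type bleomycin was left out (adjusted p = 0.0733 and 0.0593), when replicate 1 of knockout bleomycin was left out (difference -0.57, adjusted p = 0.103), or as the mean of both probe sets (-0.27, 0.177). Lpl did not pass when replicate 1, 2 or 3 of wild type bleomycin (adjusted p = 0.0965, 0.0563 and 0.0539) or replicate 1 or 2 of knockout bleomycin (0.123 and 0.0587) was left out. Fabp5 passed in 2 of the 12 fits that left out 1 array (adjusted p up to 0.164). On their further probe sets, Fabp5 was higher in knockout bleomycin lungs by 0.36 ± 0.10 (adjusted p = 0.0354) and the probe set of Cd36 with the larger fall by 0.48 ± 0.13 (adjusted p = 0.0327), where 3.66% of all probe sets were called higher. Tyrobp, Gpnmb, Lgals3 and Apoe had differences of -0.37, -0.25, -0.19 and -0.08 (adjusted p = 0.0693, 0.231, 0.247 and 0.696).

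After saline, 0 of 9 members were called between the genotypes (limma; 3 at an unadjusted p under 0.05), with 0.297% of all genes called higher and 0.192% lower in knockout lung. The 3 were Tyrobp (log2 difference 0.47 ± 0.13, unadjusted p = 0.00266, adjusted p = 0.17), Gpnmb (0.31 ± 0.13, adjusted p = 0.448) and Lgals3 (0.24 ± 0.10, adjusted p = 0.461). For each, the knockout arrays lay above the wild type arrays, which in groups of 3 goes with a small p and is no further evidence. The share of all genes at an unadjusted p under 0.05 was not counted. Array weights called Tyrobp in this comparison (0.51, adjusted p = 0.00394). Neutrophils, which also use DAP12, differed in the same lungs: 3 of 6 neutrophil genes were higher in knockout saline lungs, and their summed signal was 12.54 to 13.29 there against 11.48 to 11.89 in wild type saline lungs. Neutrophil sums were 10.35 to 10.96 in wild type and 11.25 to 11.79 in knockout lungs after bleomycin. The part of neutrophils in the Tyrobp values was not tested.

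The order of the 4 groups differed from gene to gene. For Trem2 the group means were 8.57 ± 0.08 (SD, n = 3) in wild type bleomycin, 7.75 ± 0.43 in knockout bleomycin, 6.00 ± 0.41 in wild type saline and 5.69 ± 0.26 in knockout saline lungs; the last 2 overlapped. For Tyrobp the order was wild type bleomycin (11.69 ± 0.08), knockout bleomycin (11.32 ± 0.19), knockout saline (11.04 ± 0.06) and wild type saline (10.56 ± 0.28), with no overlap between neighbours. Gpnmb and Lgals3 followed the order of Tyrobp with overlap between the 2 bleomycin groups (9.71 ± 0.24 and 9.46 ± 0.24 for Gpnmb, 12.68 ± 0.11 and 12.50 ± 0.16 for Lgals3). Lpl in knockout bleomycin lungs (11.82 ± 0.15) overlapped with knockout saline lungs (11.73 ± 0.28), and both with wild type saline lungs (11.56 ± 0.19).

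Of 11 measured general macrophage markers, 9 rose in wild type and 7 in knockout lung, with medians of 1.50 and 0.69, and 4 had a smaller response in knockout lung by the test of the difference. The 4 were Fcgr1, Cd68, Mrc1 and Adgre1 (differences of -1.49, -1.02, -0.80 and -0.73, limma, adjusted p = 0.0108, 0.0048, 0.0125 and 0.0359). The complement genes C1qb, C1qc and C1qa rose by 2.55, 2.54 and 2.49 in wild type lung, near the 2.57 of Trem2. In knockout lung they rose by 1.67, 1.52 and 1.49, and their differences were not called (limma, adjusted p = 0.0933, 0.0607 and 0.0637). The F4/80 gene Adgre1 rose by 1.42 ± 0.13 in wild type and by 0.69 ± 0.13 in knockout lung. Lyz2 (0.03 and 0.13) and Mertk (-0.20 and -0.08) passed in neither. The summed signal of the 11 was 14.08 to 14.15 in wild type saline, 14.65 to 14.70 in wild type bleomycin, 14.10 to 14.18 in knockout saline and 14.35 to 14.55 in knockout bleomycin lungs. This sum adds linear values, so the brightest of the 11 weigh most in it. Their mean log2 value went from 8.71 to 10.19 in wild type and from 8.79 to 9.58 in knockout lung. Set against the mean log2 value of these 11 markers on the same array, Gpnmb went from -1.84 to -0.48 in wild type and from -1.61 to -0.12 in knockout lung, and Trem2 from -2.71 to -1.63 and from -3.10 to -1.83. Saline and bleomycin arrays of Gpnmb and Trem2 did not overlap on this measure, whose mean includes the low changes of Lyz2, Mertk and Csf1r (0.36 in wild type lung) beside those of the C1q genes. Relative to the marker mean, Gpnmb and Trem2 were thus higher after bleomycin, and the other 7 members were lower on average in both genotypes. For Apoe in knockout lung the value went only from 2.53 to 2.47 and the arrays overlapped (2.47 to 2.59 and 2.34 to 2.54). Tyrobp went from 1.85 to 1.50 in wild type and from 2.25 to 1.74 in knockout lung, and Apoe from 2.49 to 1.94 in wild type lung. How far macrophage number accounts for the members' rises was not tested.

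Within groups, members varied together only in part. Each array's distance from its group mean was correlated between genes over the 12 arrays, as a description; the arrays share normalization and tissue make-up. Among the 6 members that rose in wild type lung, 14 of 15 pairs were positive, with r = 0.66 for Lgals3 and Tyrobp, 0.58 for Apoe and Tyrobp, 0.53 for Trem2 and Apoe, 0.51 for Trem2 and Tyrobp and 0.16 for Gpnmb and Trem2. Cd36 and Cd9 had r = 0.83 with each other, and 10 of their 12 pairs with those 6 were negative, down to -0.83 for Cd36 and Tyrobp. Over the 12 arrays without removing the groups, the gene most like each member, among genes with a mean of at least 6, was Mmp12 for Gpnmb (r = 0.991), Ms4a7 for Trem2 (0.986), Pld4 for Tyrobp (0.989), Cd84 for Lgals3 (0.984), Rgs1 for Apoe (0.972) and Gata6 for Cd36 (0.968). For Cd9, Lpl and Fabp5 it was Siae (0.951), Nudt21 (0.942) and Cep43 (0.883). These r values carry no p, since the 12 arrays share 4 groups.

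Genes that act with TREM2 and DAP12 moved unevenly with bleomycin. Of 13 measured genes of TREM2-DAP12 signalling and shedding, 5 rose and 2 fell in wild type lung and 3 rose and 0 fell in knockout lung (limma; 4 higher and 0 lower at an unadjusted p under 0.05), with medians of 0.27 and 0.03. Ms4a7 and Ms4a6d, members of a membrane-protein family expressed by macrophages, rose 6.87-fold and 6.18-fold in wild type and 3.74-fold and 2.35-fold in knockout lung. Adam17 and Adam10, proteases that can shed TREM2 from the cell surface, rose 1.62-fold and 1.50-fold in wild type lung, and Adam17 rose 1.25-fold in knockout lung (adjusted p = 1.99e-05, 0.000107 and 0.0331). Syk, the kinase recruited by DAP12, and Plcg2 had changes of 0.24 ± 0.11 and 0.26 ± 0.10 in wild type lung and did not pass (adjusted p = 0.131 and 0.065).

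Of 9 measured lipid uptake genes, 5 rose and 1 fell in wild type and 3 rose in knockout lung (medians 0.94 and 0.03). The one that fell was Vldlr, a lipoprotein receptor gene (-0.53 ± 0.12, adjusted p = 0.00597), with a change of 0.02 ± 0.12 in knockout lung (0.962). The scavenger receptors Msr1, Olr1 and Scarb1 rose 7.55-fold, 3.34-fold and 2.35-fold in wild type lung (adjusted p = 2.93e-06, 1.3e-05 and 3.56e-06), and the scavenger receptor and chemokine Cxcl16 1.91-fold (1.38e-05). Msr1 and Scarb1 had smaller responses in knockout lung, by 1.66 ± 0.33 and 0.85 ± 0.15 (adjusted p = 0.0157 and 0.00757). Marco and Gpihbp1, the endothelial anchor of lipoprotein lipase, did not pass in wild type lung (0.95 ± 0.48 and -0.27 ± 0.11, adjusted p = 0.163 and 0.0795). Of 8 lipid storage and binding genes, 1 rose and 5 fell in wild type lung and 0 passed in knockout lung (limma; 1 higher and 5 lower at an unadjusted p under 0.05), with medians of -0.78 and -0.49. The lipid droplet gene Plin2 rose 1.39-fold (adjusted p = 0.00184), while Hilpda, Pnpla2, which encodes a triglyceride lipase, and Dgat2, which encodes a triglyceride-forming enzyme, fell by 1.04 ± 0.15, 0.53 ± 0.10 and 1.11 ± 0.22. Fabp4 had a change of -0.35 ± 0.56 in wild type lung (adjusted p = 0.684). Fat expresses several of the genes that fell, the adipocyte sums are given above, and the part of fat was not tested.

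Genes of cholesterol efflux and its nuclear receptors mostly did not pass. Of 9 measured, 2 rose and 1 fell in wild type lung and 0 passed in knockout lung (limma; 1 higher and 2 lower at an unadjusted p under 0.05), with medians of 0.09 and 0.06. The cholesterol exporter Abca1 rose 1.45-fold and Ppard 1.33-fold in wild type lung (adjusted p = 0.000374 and 0.0117), and Apoc1, a neighbour of Apoe in the same apolipoprotein cluster, fell by 0.87 ± 0.16 (adjusted p = 0.00151), with a response that differed by 1.28 ± 0.23 between the genotypes (adjusted p = 0.00927). The other exporter Abcg1 and the receptor gene Nr1h3, which encodes LXR-alpha, had changes of -0.03 ± 0.09 and -0.19 ± 0.13 (adjusted p = 0.851 and 0.321).

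Of 15 measured lysosomal genes, 11 rose and 0 fell in wild type and 7 rose and 0 fell in knockout lung (limma, 0 lower at an unadjusted p under 0.05 in both; medians 0.75 and 0.36), and 4 had a smaller response in knockout lung. Cd68, a lysosomal glycoprotein of macrophages, rose 4.48-fold and 2.20-fold in wild type and knockout lung, Ctss 2.71-fold and 1.80-fold, Lgmn 2.60-fold and 1.48-fold and Ctsk 4.97-fold and 3.01-fold. The difference was called for Cd68 (-1.02 ± 0.15, adjusted p = 0.0048), Lgmn (-0.81, 0.00982), Ctss (-0.59, 0.0313) and Ctsl (-0.46, 0.0449). The 4 genes that did not pass in wild type lung did not pass in knockout lung either: Lamp1, a structural lysosomal membrane protein (0.06 in wild type, adjusted p = 0.525), Tfeb, a regulator of lysosomal genes (-0.10, 0.473), and the cholesterol transport genes Npc1 (0.29, 0.0898) and Npc2 (0.14, 0.244).

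For the receptors of osteopontin, the product of Spp1, 6 of 9 rose in wild type lung and 1 in knockout lung (medians 0.58 and 0.20). Cd44 rose 1.65-fold, Itgb6 3.08-fold, Itga5 2.19-fold and Itgav 1.48-fold in wild type lung, and Itgb6, an integrin chain of epithelium, rose 1.90-fold in knockout lung (adjusted p = 0.0172). Itga9 and Itga4 had changes of 0.03 ± 0.09 and -0.17 ± 0.11 in wild type lung and did not pass (adjusted p = 0.836 and 0.247). Of the 19 other genes of lipid-associated and scar macrophages, which share Plin2 and Fabp4 with the storage list, 15 rose and 1 fell in wild type and 7 rose and 0 fell in knockout lung (limma; 2 lower at an unadjusted p under 0.05), with medians of 1.17 and 0.33. Mmp12, the macrophage elastase, rose 36.9-fold and 17.6-fold, Clec7a, the beta-glucan receptor, 3.99-fold and 2.04-fold, Atp6v0d2, a proton pump subunit, 3.05-fold and 2.22-fold and Mmp14 4.33-fold and 1.93-fold. In knockout lung 5 of the 19 had a smaller response: the arginine-degrading enzyme gene Arg1 (-4.15, adjusted p = 0.00441), Lpcat2 (-0.99, 0.00982), Clec7a (-0.97, 0.0111), Mmp14 (-1.17, 0.0306) and Cstb (-0.39, 0.0479). Clec7a was already higher in knockout lung after saline (0.69, limma, adjusted p = 0.0332) and was not called between the genotypes after bleomycin (-0.27, 0.175). Arg1, Lpcat2, Mmp14 and Cstb were called lower in knockout lung after bleomycin (-3.54, -0.57, -1.29 and -0.38). Csf1 and Pdgfa did not pass (0.12 ± 0.12 and 0.04 ± 0.09 in wild type lung).

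**Figure D4:**
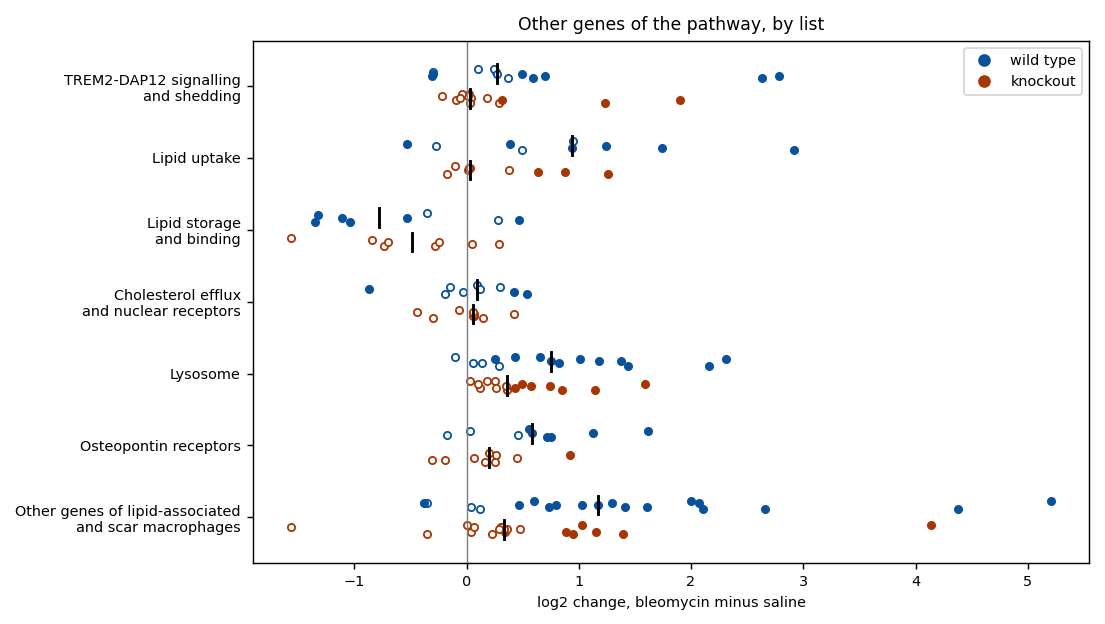
Log2 change with bleomycin (horizontal axis) of each measured gene of 7 lists, the 9 members left out, in wild type (blue) and knockout (brown) lung; filled points passed at adjusted p under 0.05 over 18194 genes and black ticks are list medians. Points of the lysosome and lipid-associated macrophage lists lie mostly to the right of 0 in both genotypes, and the storage list has its median to the left.

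Markers of other cells in the samples moved too. Of 8 fibroblast genes, 6 rose and 1 fell in wild type and 3 rose in knockout lung, with summed signals of 14.10 to 14.20 and 14.92 to 15.31 in wild type lung and 13.84 to 13.99 and 14.26 to 14.52 in knockout lung after saline and bleomycin. All 10 cardiac muscle genes, which mark heart or pulmonary vein tissue, fell in wild type lung. The mean of their sums was 12.95 after saline and 11.18 after bleomycin there. In knockout lung 2 of 10 fell (limma, 9 lower at an unadjusted p under 0.05), and these means were 13.25 and 12.07. The median log2 changes of the 10 were -1.65 in wild type and -1.20 in knockout lung, and 0 were called for the difference. Alveolar type 2 genes, of a cell type that can express Fabp5 and Cd9, fell in 5 of 8 cases in wild type lung and passed in 0 of 8 in knockout lung (limma; 2 higher and 0 lower at an unadjusted p under 0.05), and 7 of 8 were higher in knockout than in wild type lungs after bleomycin. Of 7 platelet genes, in whose cells Cd9 and Cd36 are abundant, 5 fell in wild type and 2 in knockout lung. In knockout lung 4 platelet genes were lower at an unadjusted p under 0.05 (limma), and 0 of 7 were called for the difference. All 6 NK and T cell genes fell in wild type lung, with sums of 9.21 to 9.67 after bleomycin and 10.69 to 11.27 after saline. In knockout lung 1 of 6 fell (limma, 4 lower at an unadjusted p under 0.05), and 2 of 6 were called for the difference. The part of these cells in the members' values was not tested.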

How the data were processed

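Whole-lung RNA from 12 samples (4 groups of 3) was hybridized to Affymetrix arrays, 1 per sample. The authors deposited 1 log2 value per probe set and array, an RMA summary; affy, RMA and limma are named in the submitters' processing notes without versions, and a genome build is not given in the sources used here. Detection calls were not used, and the number of arrays limits the precision.

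The annotation gives 34958 of the 45101 probe sets a single gene and 932 of them more than 1, and leaves 9211 unnamed; 34754 matched the GRCm38.p6 gene table by Entrez identifier, which was used for names. The brightest probe set of each of 18194 genes was tested across all genes in 1 limma fit of all arrays (limma 3.58.1, R 4.3.3; a mean per group, no block; eBayes with no trend; degrees of freedom 8 residual, 4.86 prior). A gene was called where its Benjamini-Hochberg adjusted p was under 0.05; the SE is from this fit. A second fit covered every probe set. Summed signals add linear values of a list and take log2. Members, lists and tests were chosen with earlier results of these data known, and the lists are described by counts and medians. Cidec, Car4, Cd68, Marco, Pparg, Folr2, Gpihbp1, Plin2 and Fabp4 are each in more than 1 list, so the counts of those lists are not independent. From each list up to 4 genes with the smallest p in wild type lung and up to 2 textbook genes that did not pass are named, and for each member the gene most like it. Genes named beyond this, such as single cell type markers, genes called for the difference or the other members of a count, were chosen after their values were seen. Alternatives were a filter at a mean of 5, other scaling, eBayes and probe set rules, the groups of a contrast alone, array weights, a replicate block, a 2-fold minimum and each array left out. The procedure was tested on simulated data. Python 3.11.15 and matplotlib 3.10.9 drew the plots. Promoter windows are from RefSeq (GRCm38.p6).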

Additional observations from a re-analysis of the deposited data

Results flagged for a closer look

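Tyrobp was singled out because its response to bleomycin differed between the genotypes by a direct test: the knockout change was lower than the wild type change by a log2 difference of -0.84 ± 0.18 (limma, adjusted p = 0.021). The difference is made of both ends, since knockout lungs were higher after saline (0.47 ± 0.13, adjusted p = 0.17) and lower after bleomycin (-0.37 ± 0.13, adjusted p = 0.0693), and neither of these passed. The difference passed in 17 of 20 alternatives, and over all 20 the adjusted p ran from 0.00294 to 0.0607. Groups of 3 arrays are too small for the test of single outlying arrays.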

How the results depend on the processing

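Over 21 alternatives, the 2-fold minimum aside, the wild type rises of Gpnmb, Trem2, Tyrobp, Apoe, Lgals3 and Lpl were called each time, as were the knockout rises of Gpnmb, Trem2 and Apoe; Lgals3 in knockout lung was called in 13 of 21. It was lost with quantile normalization repeated (adjusted p = 0.0552), with every probe set tested (0.0535) and with the replicate block (0.0633). The counts of called members were 6, 3, 1, 0 and 2 with the replicate block, in the order wild type response, knockout response, difference, saline and bleomycin, against 6, 4, 1, 0 and 3. Same-numbered replicates of different groups did not deviate together (r = -0.30 to 0.20 over 18 pairs). With 3 arrays in a group this cannot tell whether the numbers pair the samples. With a 2-fold minimum the counts of called members were 3, 2, 0, 0 and 0. Array weights gave 3 for the difference (Gpnmb and Lpl added), 1 after saline and 1 after bleomycin, where every probe set tested also gave 1. Leaving out 1 array gave 0 to 1 for the difference (Tyrobp, or Lpl without knockout saline replicate 3) and 0 to 4 after bleomycin. After bleomycin, Fabp5 was called in 7 of 21 alternatives, Lpl in 14 and Trem2 in 17.

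Signs turned only for changes that were not called. For Cd36 the difference between responses was -0.01 with quantile normalization repeated, -0.11 with array weights and -0.17 to 0.15 with 1 array left out. Trem2 after saline was 0.03 with array weights. With 1 array left out, the knockout change of Lpl ran from -0.07 to 0.19, the difference for Cd9 from -0.18 to 0.11, Cd9 after saline from -0.02 to 0.27 and Apoe after bleomycin from -0.23 to 0.02. Over all genes, calls for the knockout response numbered 594, against 386 with every probe set tested, 1286 with array weights and 211 without knockout saline replicate 2; for the difference they numbered 914, against 497, 1888 and, without knockout saline replicate 1, 380, and 601 with the replicate block. After saline 89 genes were called, against 54 with every probe set tested, 37 with the groups of the contrast alone, 1105 with array weights and 24 without knockout saline replicate 3; after bleomycin 2804 were called, against 1863 without wild type bleomycin replicate 1 and 1653 without knockout bleomycin replicate 1. With a 2-fold minimum the counts over all genes were 738 (of 5045), 90, 307, 24 and 394. The cause of these changes was not tested. Signal near background limits the second probe sets of Gpnmb and Trem2.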

Other observations

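Marker genes of other macrophages are given here as values. Among 10 genes of resident alveolar macrophages, 4 fell and 1 rose in wild type lung and 0 passed in knockout lung (limma; 1 higher and 3 lower at an unadjusted p under 0.05). The fatty acid binding protein gene Fabp1 and the keratin gene Krt79 fell by 3.17 ± 0.30 and 1.91 ± 0.20 on the log2 scale in wild type lung, with changes of -0.72 and -0.20 in knockout lung that did not pass, and the responses differed by 2.44 ± 0.43 and 1.71 ± 0.28 (adjusted p = 0.00843 and 0.00669). After bleomycin 5 of the 10 were higher in knockout than in wild type lung and 0 lower (limma; 2 lower at an unadjusted p under 0.05). The 5 were Fabp1, Krt79, Cidec, Car4 and the surface marker gene Siglecf (0.80 ± 0.21, limma, adjusted p = 0.0201). Car4 is also counted among the endothelial genes above, and Cidec among the adipocyte and the lipid storage genes. The 5 that did not pass were Marco (-1.06), Plet1 (-0.23), Il18 (-0.14), Chil3 (0.02) and Pparg (0.03). Of 6 monocyte and interstitial macrophage genes, 5 rose and 1 fell in wild type and 1 rose in knockout lung. The gene that rose in knockout lung was Fn1 (0.78 ± 0.13, limma, adjusted p = 0.00677). Lyve1 was the one that fell in wild type lung (-0.49 ± 0.12, limma, adjusted p = 0.00628). Cx3cr1 was higher in knockout than in wild type lung after saline (0.52 ± 0.09, limma, adjusted p = 0.0296) and was not called between the genotypes after bleomycin (-0.03, 0.886). The chemokine receptor gene Ccr2 rose by 0.93 ± 0.18 and Plac8 by 0.84 ± 0.14 in wild type lung. In knockout lung their changes were -0.07 ± 0.18 and -0.46 ± 0.14 and did not pass, and the test of the difference called both (adjusted p = 0.0404 and 0.00545). Knockout against wild type, Ccr2 was not called after bleomycin (-0.18, limma, adjusted p = 0.552) or after saline, where it was 0.82 higher (0.0782). Plac8 was lower after bleomycin (-0.99, limma, adjusted p = 0.000631) and was not called after saline (0.31, 0.49).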
